A study of Homo sapiens with 6 samples.

Results

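The genes described here repair broken, crosslinked or mispaired DNA, or signal that it is damaged. They were chosen as every probe set with exactly 1 gene symbol whose symbol is among 45 named repair genes. Of the 45, 40 genes were measured, on 41 of 33297 probe sets (18417 named genes in all). The 45 genes were listed with earlier results of these data known. BRCA2, RBBP8, FANCA, FANCD2 and ATRIP were not analysed here. Of the 40 genes, 16 act in homologous recombination, 9 in the Fanconi pathway, 5 in end joining, 2 in mismatch repair and 8 in checkpoint and damage signalling. MDC1 was read by 2 probe sets with identical values on all 6 arrays, which were counted as 1.

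The cells were U2OS, a human osteosarcoma line, and all of them received siRNA in 2 transfections, with harvest 4 days after transfection. The control group received luciferase siRNA, which has no target in human cells. The other groups received H3.Y siRNA, or siRNA directed at H3.X as well as H3.Y, called the combined knockdown below. Both targets are histone H3 variants found in primates. Each group held 2 arrays, and since the labels call these biological replicates but do not describe separate cultures, every p-value measures the spread between these arrays, which may be technical. The siRNA targets themselves were not analysed here, the labels do not say whether the combined group received 1 siRNA or a mixture, and all arrays come from 1 cell line.

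Homologous recombination copies the lost sequence from the sister chromatid, so it works in S and G2 phase and its genes are usually transcribed most in dividing cells. The Fanconi proteins recognise crosslinks between DNA strands, attach ubiquitin to a central protein pair and pass the break on to recombination. End joining seals ends directly at any phase of the cycle, mismatch repair removes copying errors, and the kinases ATM and ATR report breaks and stalled forks to both repair and the cell cycle.

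In short, 3 of the 40 repair genes fell and 1 rose in the combined knockdown, and 0 passed the test after H3.Y siRNA alone. Of all probe sets, 0.985% were called lower and 0.859% higher in the combined knockdown, and 0.279% in either direction after H3.Y siRNA. The damage mediator MDC1, the recombination gene XRCC2 and the replication stress kinase ATR were lower, by 2.27-fold, 2.33-fold and 1.69-fold. The ATR call was lost with the replicate number as a block. Every call rests on 2 arrays a group, and fits with 1 array left out cannot test it, as described below. XRCC4, the scaffold of the end-joining ligase, was 2.19-fold higher. It was also the 1 gene of the 40 whose level differed between the knockdowns by the test, where 4.67% of all probe sets did.

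The promoters of these 4 called genes are shown because the results turn on them, with XRCC4 opposite in direction to the other 3. Each line gives the 250 bases before the RefSeq start site, 5′ to 3′ on the gene's strand, in assembly GRCh38.p14. Capitals mark a CCAAT box or a CHR-type element, both common in promoters of cell cycle genes. Those of MDC1 (chr6:30717282-30717531, minus strand), XRCC2 (chr7:152676142-152676391, minus strand), ATR (chr3:142578734-142578983, minus strand) and XRCC4 (chr5:83077297-83077546, plus strand) read as follows.
MDC1: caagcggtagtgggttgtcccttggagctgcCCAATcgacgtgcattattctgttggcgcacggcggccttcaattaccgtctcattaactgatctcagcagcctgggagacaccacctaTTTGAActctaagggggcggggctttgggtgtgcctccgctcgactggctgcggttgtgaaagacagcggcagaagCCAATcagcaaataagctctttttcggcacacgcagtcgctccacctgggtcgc
XRCC2: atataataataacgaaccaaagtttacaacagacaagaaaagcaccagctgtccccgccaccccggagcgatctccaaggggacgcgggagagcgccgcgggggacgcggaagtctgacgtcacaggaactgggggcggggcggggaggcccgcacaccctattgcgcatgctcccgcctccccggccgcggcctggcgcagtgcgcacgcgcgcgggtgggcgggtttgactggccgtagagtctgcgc
ATR: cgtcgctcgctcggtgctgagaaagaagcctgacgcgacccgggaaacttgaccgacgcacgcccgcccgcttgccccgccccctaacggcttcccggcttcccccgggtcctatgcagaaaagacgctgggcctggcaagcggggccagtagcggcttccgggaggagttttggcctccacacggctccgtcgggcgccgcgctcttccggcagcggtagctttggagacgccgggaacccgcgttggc
XRCC4: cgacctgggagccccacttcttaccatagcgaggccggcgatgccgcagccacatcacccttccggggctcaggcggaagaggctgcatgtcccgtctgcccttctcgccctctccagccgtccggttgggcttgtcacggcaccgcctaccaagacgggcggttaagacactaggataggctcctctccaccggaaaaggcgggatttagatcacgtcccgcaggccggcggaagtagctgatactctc

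Only the MDC1 stretch among these 4 held a searched motif, with CCAAT starting 219 and 54 bases before the start site and TTTGAA 130 bases before it. The search covered both strands for CCAAT, for the CHR-type letters TTTGAA and TTCGAA, and for the E2F-type letters TTTCCCGC, TTTGGCGC, TTTCGCGC and TTTGCCGC. The promoter table held 34 of the 40 genes. CCAAT was present in 18 of these 34 (52.9%), against 33.0% of 27305 promoters of the same length. CHR-type letters were present in 4 (11.8%, against 14.6%) and E2F-type letters in 2, FANCC and PMS2 (5.9%, against 2.8%). The 18 genes with CCAAT had a median log2 difference from luciferase of -0.44 after H3.Y siRNA and -0.43 in the combined knockdown, and the 16 without it -0.27 and -0.25. These are descriptions with no test, and a match is not a shown binding site.

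Each probe set has a deposited expression value in log2 units, and the array medians ran from 5.10 to 5.14. Luciferase means of the 40 genes ran from 4.94 to 10.92 log2 units, all above the lower quartile of all array values, 3.33. Arrays of a group correlated across probe sets with r of 0.986 to 0.992. Luciferase replicate 2 read higher than replicate 1 for 33 of the 40 repair genes, by a median of 0.23 log2 units. The luciferase arrays thus differed from each other in the genes compared here. Replicate 2 was also higher for 25 of 31 further recombination genes, but for 1 of 9 mesenchymal markers. The share over all probe sets was not computed, so this is not shown to be particular to the repair genes. The luciferase means of 9 mesenchymal markers ran from 4.85 (COL1A2) to 10.82 (VIM), with a median of 8.47. RUNX2, TWIST1 and COL5A1 (5.22, 5.58 and 5.78) were near the array median, as COL1A2 was. The 5 blood markers stayed between 1.93 and 4.50 in all 3 groups. Of 5 epithelial markers, 4 stayed under 5 in all groups, while EPCAM went from 5.06 in luciferase cells to 7.31 in the combined knockdown. The 9 mesenchymal markers had a median of log2 0.80 to 1.02 above their luciferase mean on the combined knockdown arrays and 0.02 to 0.07 on the H3.Y arrays. The part of these marker differences in the results below was not tested.

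**Figure D1:**
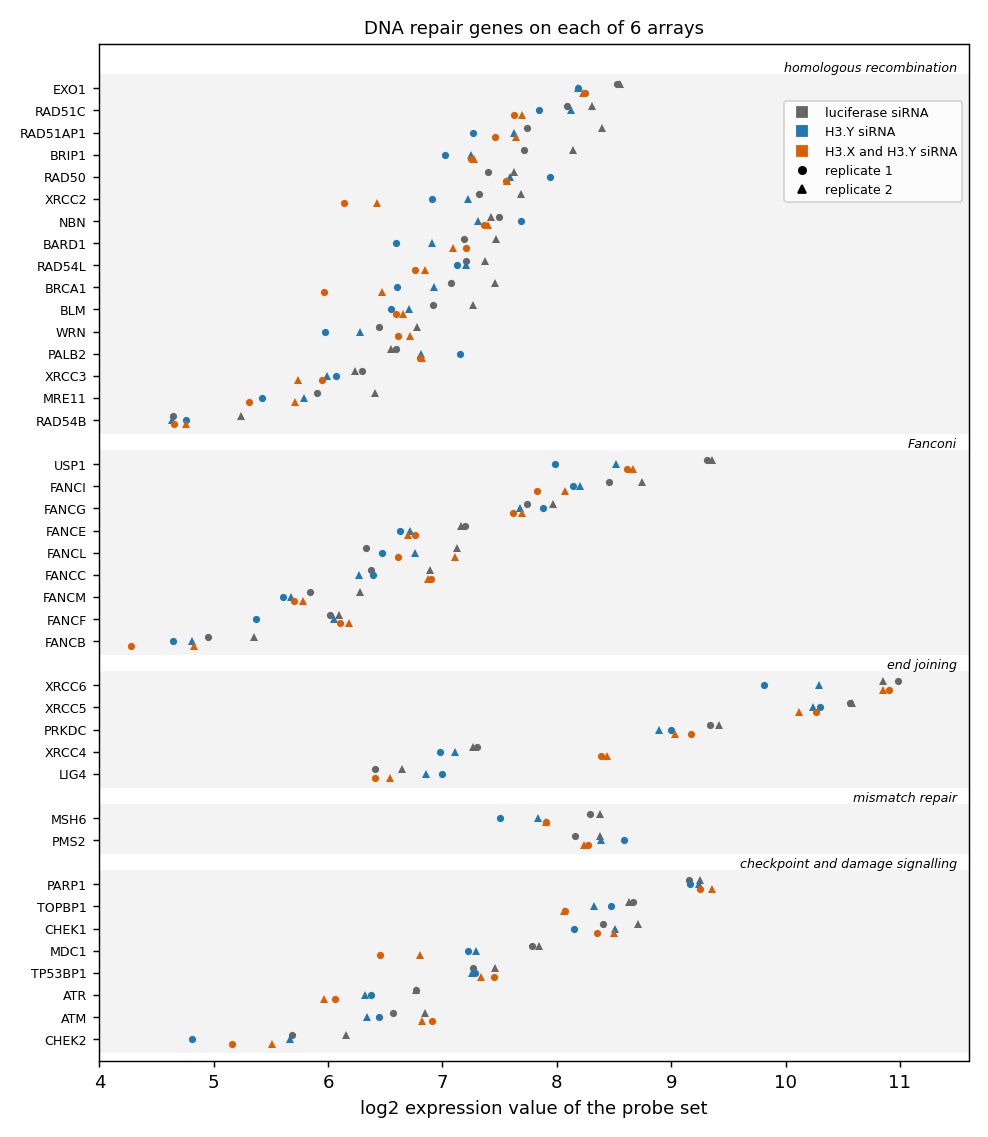
Log2 expression value (horizontal axis) of 40 repair genes on each of the 6 arrays, grouped by pathway and ordered by luciferase mean, with colours for the 3 siRNA groups and symbols for the replicates. XRCC4 in the combined knockdown, at 8.38 and 8.44, lies apart from the other 4 arrays at 6.98 to 7.30, and values of different genes come from different probes and are not comparable with each other.

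The first comparison asks which repair genes differ when H3.Y is targeted. Against luciferase, 35 of the 40 genes had a lower mean and 5 a higher mean after H3.Y siRNA, where the shares over all 33297 probe sets were 46.6% and 53.4%. The median log2 difference was -0.35, against 0.02 over all probe sets, and the range was -1.09 to 0.41. Since the genes were listed with earlier results known, such counts and medians, here and below, are descriptions without a test. In limma, with Benjamini-Hochberg adjustment over all probe sets, 0 of the 40 passed an adjusted p of 0.05, where 0.195% of probe sets were called lower, 0.0841% higher and 0.279% in either direction. At an unadjusted p under 0.05 there were 15 lower genes and 2 higher ones, against 7.66% and 6.21% of all probe sets. Both H3.Y arrays lay below both luciferase arrays for 25 genes and above them for 3, against 20% and 21.7% of all probe sets.

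The combined knockdown was compared with luciferase to ask the same when both variants are targeted. Of the 40 genes, 30 had a lower mean and 10 a higher mean, where the shares over all probe sets were 49.8% and 50.2%. The median log2 difference was -0.31, against 0.00087 over all probe sets, and the range was -1.22 to 1.13. There were 3 genes called lower and 1 called higher, or 4 in all, against 0.985%, 0.859% and 1.84% of all probe sets. At an unadjusted p under 0.05 there were 18 lower and 1 higher, against 8.12% and 7.16%. Both arrays lay below both luciferase arrays for 24 genes and above them for 3, against 24.0% and 23.4% of all probe sets. Both comparisons use the same 2 luciferase arrays, so a luciferase value that is high by chance lowers both differences.

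The knockdowns were set against each other to test whether their effects differ. Here 19 of the 40 genes were lower and 21 higher in the combined knockdown than after H3.Y siRNA, where 54.4% and 45.6% of all probe sets were. The median log2 difference was 0.03 against -0.03 over all probe sets. XRCC4 was the 1 gene called (higher), where 2.74% of all probe sets were called higher, 1.92% lower and 4.67% in either direction. At an unadjusted p under 0.05 there were 6 lower and 5 higher, against 9.28% and 9.72%. Arrays of the groups did not overlap for 12 lower and 14 higher genes, against 25.4% and 21.2%.

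**Figure D2:**
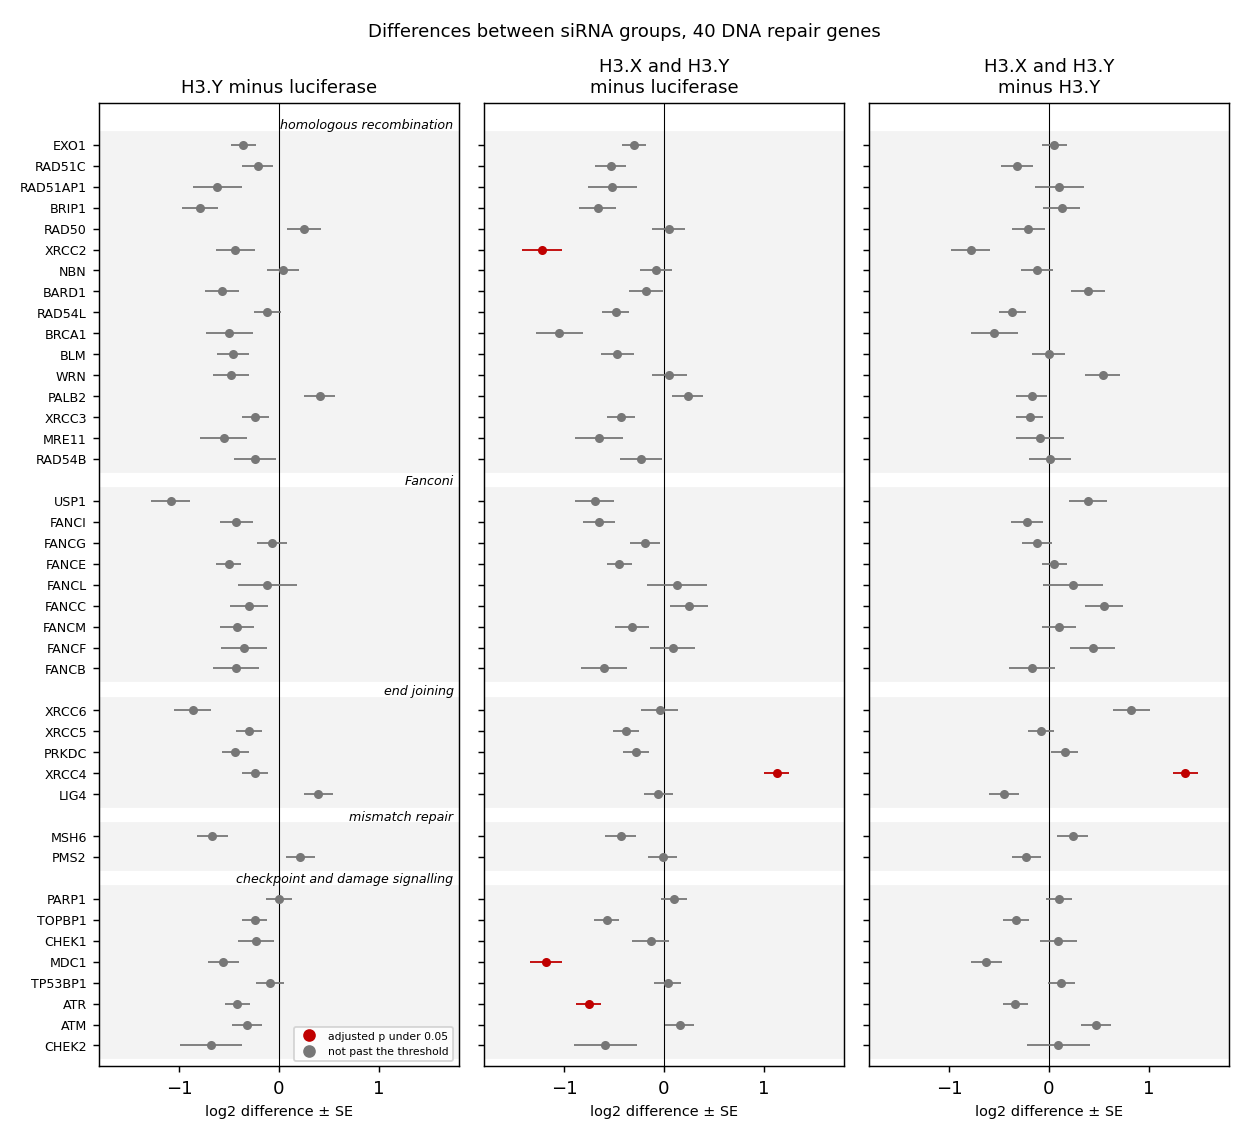
Log2 difference (horizontal axis, with the standard error of the moderated fit) of each of 40 repair genes for the 3 comparisons, grouped by pathway, red where the adjusted p is under 0.05. In the left panel 35 of 40 points lie below 0 and none is red, in the middle panel MDC1, XRCC2 and ATR (below 0) and XRCC4 (above 0) are red, and in the right panel XRCC4 alone is red.

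Among the genes of homologous recombination, XRCC2 carried the largest difference in the combined knockdown. XRCC2 acts in the strand exchange step of recombination. It read 7.32 and 7.69 log2 units on the luciferase arrays, 6.91 and 7.23 after H3.Y siRNA, and 6.14 and 6.43 in the combined knockdown (replicates 1 and 2). The 3 groups formed a series without overlap, with the combined knockdown lowest. XRCC2 fell by 1.22 ± 0.20 log2 units (SE, n = 2 per group, limma adjusted p = 0.043) in the combined knockdown. This call rests on 2 arrays a group, as described below. After H3.Y siRNA the difference was -0.44 ± 0.20 (adjusted p = 0.41), and the difference between the knockdowns, -0.78 ± 0.20, did not pass (adjusted p = 0.087). With the replicate number as a block that last difference did pass (adjusted p = 0.032, range over all alternatives 0.025 to 0.41).

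BRCA1, which promotes resection of broken ends and acts with PALB2, read 7.07 and 7.46 in luciferase cells, 6.61 and 6.93 after H3.Y siRNA and 5.96 and 6.47 in the combined knockdown. Again no knockdown array reached a luciferase array, but the spread within groups was wide. The differences were -0.50 ± 0.24 (adjusted p = 0.42) and -1.05 ± 0.24 (adjusted p = 0.094), so BRCA1 was not called in either. With the replicate number as a block it was called in the combined knockdown (adjusted p = 0.032, range over all alternatives 0.021 to 0.46). Its partner BARD1, with which it forms a ubiquitin ligase, read 7.19 and 7.46, then 6.60 and 6.91, then 7.20 and 7.09. BARD1 arrays were thus lowest after H3.Y siRNA (-0.57 ± 0.17, adjusted p = 0.22) and overlapped luciferase in the combined knockdown (-0.18 ± 0.17, adjusted p = 0.76).

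The helicase BRIP1, which binds BRCA1 and is also a Fanconi protein, read 7.71 and 8.14 in luciferase cells, 7.02 and 7.25 after H3.Y siRNA, and 7.25 and 7.27 in the combined knockdown. All 4 knockdown arrays lay under both luciferase arrays, at -0.79 ± 0.18 and -0.67 ± 0.18 (adjusted p of 0.15 in both). The exonuclease EXO1, which resects ends over long distances, showed small but tight differences. It read 8.53 and 8.55, then 8.19 and 8.18, then 8.25 and 8.23, which gave -0.36 ± 0.12 (adjusted p = 0.27) and -0.30 ± 0.12 (adjusted p = 0.31). PALB2, a binding partner of BRCA1, had the largest positive difference of the 40 genes after H3.Y siRNA. It read 6.60 and 6.55, then 7.15 and 6.81, then 6.80 and 6.82, so that all knockdown arrays lay above luciferase, at 0.41 ± 0.16 (adjusted p = 0.32) and 0.24 ± 0.16 (adjusted p = 0.58).

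Over all 16 recombination genes, the median difference was log2 -0.40 after H3.Y siRNA (13 lower, 0 called) and -0.45 in the combined knockdown (13 lower, XRCC2 called). The RecQ helicase BLM gave -0.46 ± 0.16 and -0.47 ± 0.16, while WRN, of the same family, gave -0.48 ± 0.18 after H3.Y siRNA and 0.06 ± 0.18 in the combined knockdown. RAD51AP1, which stimulates strand pairing, gave -0.62 ± 0.25 and -0.52 ± 0.25. Among other genes of strand exchange, RAD51C gave -0.22 ± 0.16 and -0.53 ± 0.16 and XRCC3 -0.24 ± 0.14 and -0.43 ± 0.14. The translocase RAD54L gave -0.12 ± 0.13 and -0.48 ± 0.13, and its relative RAD54B -0.24 ± 0.21 and -0.23 ± 0.21. In the complex that first binds broken ends, the nuclease MRE11 gave -0.56 ± 0.24 and -0.65 ± 0.24. Its partners RAD50 (0.25 ± 0.17 and 0.05 ± 0.17) and NBN (0.04 ± 0.16 and -0.08 ± 0.16) lay nearer 0, and none of the 3 subunits was called. Adjusted p-values of the uncalled recombination genes in limma ran from 0.15 to 0.95 after H3.Y siRNA and from 0.094 to 0.96 in the combined knockdown.

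In the Fanconi group, USP1, the enzyme that removes ubiquitin from the central protein pair, had the lowest unadjusted p of all 40 genes after H3.Y siRNA. USP1 read 9.31 and 9.35 in luciferase cells, 7.98 and 8.51 after H3.Y siRNA, and 8.61 and 8.66 in the combined knockdown. Luciferase and combined knockdown arrays were tight, while the H3.Y arrays were spread and lay lowest. The differences from luciferase were -1.09 ± 0.19 (adjusted p = 0.093) and -0.69 ± 0.19 (adjusted p = 0.15).

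FANCI, 1 of the central pair, read 8.46 and 8.74, then 8.14 and 8.20, then 7.83 and 8.07. Its 3 groups did not overlap, at -0.43 ± 0.16 (adjusted p = 0.32) and -0.65 ± 0.16 (adjusted p = 0.12). FANCE, the core complex subunit that contacts that pair, read 7.20 and 7.16, then 6.63 and 6.72, then 6.76 and 6.70. Both knockdown groups lay about equally far under luciferase, at -0.51 ± 0.13 (adjusted p = 0.16) and -0.45 ± 0.13 (adjusted p = 0.16).

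The 9 Fanconi genes had a median of log2 -0.42 after H3.Y siRNA, with all 9 means lower, and -0.32 in the combined knockdown, with 6 lower, and 0 were called in either. FANCB gave -0.43 ± 0.23 and -0.60 ± 0.23, and the translocase FANCM -0.42 ± 0.17 and -0.32 ± 0.17. FANCG gave -0.07 ± 0.15 and -0.19 ± 0.15. The signs were mixed for FANCC (-0.30 ± 0.19 and 0.25 ± 0.19), FANCF (-0.35 ± 0.23 and 0.09 ± 0.23) and FANCL, the ubiquitin ligase subunit (-0.12 ± 0.30 and 0.13 ± 0.30), all within 2 standard errors of 0. Between the knockdowns FANCC differed by 0.56 ± 0.19 (adjusted p = 0.18).

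The end-joining genes did not follow 1 pattern. XRCC4 holds DNA ligase IV at the ends. It read 7.30 and 7.27 log2 units in luciferase cells, 6.98 and 7.11 after H3.Y siRNA, and 8.38 and 8.44 in the combined knockdown. Both arrays of the combined knockdown lay over 1 log2 unit above every other array, while the H3.Y arrays lay just below luciferase. XRCC4 rose by log2 1.13 ± 0.13 over luciferase (limma adjusted p = 0.020) and by 1.37 ± 0.13 over H3.Y siRNA (adjusted p = 0.0075), or 2.19-fold and 2.58-fold. The H3.Y difference was -0.24 ± 0.13 (adjusted p = 0.48). LIG4, the ligase itself, read 6.41 and 6.65, then 6.99 and 6.86, then 6.41 and 6.54. It was higher on both H3.Y arrays (0.39 ± 0.15, adjusted p = 0.31) and overlapped luciferase in the combined knockdown (-0.05 ± 0.15), so it did not move with XRCC4.

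XRCC6 and XRCC5 encode the Ku70 and Ku80 subunits of the ring that threads onto broken ends. XRCC6 read 10.99 and 10.86, then 9.81 and 10.29, then 10.90 and 10.86. It was low on the H3.Y arrays alone (-0.87 ± 0.18, adjusted p = 0.13) and level with luciferase in the combined knockdown (-0.04 ± 0.18, adjusted p = 0.96). The difference between the knockdowns, 0.82 ± 0.18, missed the threshold (adjusted p = 0.063). XRCC5 read 10.57 and 10.58, then 10.30 and 10.24, then 10.27 and 10.12. It lay under luciferase in both, at -0.30 ± 0.13 (adjusted p = 0.38) and -0.38 ± 0.13 (adjusted p = 0.23). PRKDC, the kinase recruited by Ku, read 9.34 and 9.42, then 9.00 and 8.89, then 9.17 and 9.03, which gave -0.44 ± 0.13 (adjusted p = 0.23) and -0.28 ± 0.13 (adjusted p = 0.41). The median of the 5 genes was -0.30 after H3.Y siRNA and -0.05 in the combined knockdown.

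Of the mismatch repair genes, MSH6, which recognises mispaired bases, read 8.29 and 8.38, then 7.50 and 7.83, then 7.90 and 7.91. All knockdown arrays lay under luciferase, at -0.67 ± 0.15 (adjusted p = 0.15) and -0.43 ± 0.15 (adjusted p = 0.25). PMS2, part of the endonuclease that follows recognition, read 8.16 and 8.38, then 8.58 and 8.38, then 8.27 and 8.24. Its groups were close to each other, at 0.21 ± 0.15 (adjusted p = 0.60) and -0.01 ± 0.15 (adjusted p = 0.99). PMS2 has near-identical gene copies that its probe set may also read, so its value is uncertain.

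In checkpoint and damage signalling, MDC1 and ATR fell in the combined knockdown. MDC1 binds phosphorylated histone H2AX beside a break and gathers the repair factors there. It read 7.78 and 7.85 in luciferase cells, 7.22 and 7.29 after H3.Y siRNA, and 6.45 and 6.80 in the combined knockdown. The groups were well apart, with H3.Y siRNA in the middle. MDC1 fell by 1.18 ± 0.16 log2 units in the combined knockdown (limma adjusted p = 0.027), gave -0.56 ± 0.16 after H3.Y siRNA (adjusted p = 0.20), and differed by -0.63 ± 0.16 between the knockdowns (adjusted p = 0.087).

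ATR, the kinase that answers stalled forks, read 6.77 on both luciferase arrays, 6.38 and 6.32 after H3.Y siRNA, and 6.06 and 5.96 in the combined knockdown. The 3 groups again formed a tight series without overlap. ATR fell by 0.76 ± 0.13 log2 units in the combined knockdown (adjusted p = 0.045) and gave -0.42 ± 0.13 after H3.Y siRNA (adjusted p = 0.22). Its fall lost the call with the replicate number as a block (adjusted p = 0.051, range over all alternatives 0.010 to 0.28). The step between the knockdowns was -0.34 ± 0.13 (adjusted p = 0.21). Its activator TOPBP1 read 8.66 and 8.63, then 8.48 and 8.33, then 8.08 and 8.07. TOPBP1 thus had the same order of groups, at -0.25 ± 0.13 (adjusted p = 0.47) and -0.57 ± 0.13 (adjusted p = 0.094), without a call.

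ATM, the kinase that answers double-strand breaks, read 6.57 and 6.85, then 6.45 and 6.34, then 6.91 and 6.82. Unlike the ATR arrays, the ATM arrays of the combined knockdown overlapped luciferase (0.16 ± 0.15, adjusted p = 0.76), and those of H3.Y siRNA lay below (-0.32 ± 0.15, adjusted p = 0.42). The effector kinase CHEK2 read 5.69 and 6.15, then 4.81 and 5.67, then 5.16 and 5.51. Its H3.Y arrays were wide apart, and the differences were -0.68 ± 0.31 (adjusted p = 0.41) and -0.59 ± 0.31 (adjusted p = 0.47). CHEK1, the effector of ATR, gave -0.23 ± 0.18 and -0.13 ± 0.18, and the end-protecting factor TP53BP1 -0.09 ± 0.14 and 0.04 ± 0.14. PARP1, which senses single-strand breaks, read 9.15 to 9.35 on all 6 arrays. The median of the 8 signalling genes was -0.28 after H3.Y siRNA, with 8 lower, and -0.35 in the combined knockdown, with 5 lower.

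**Figure D3:**
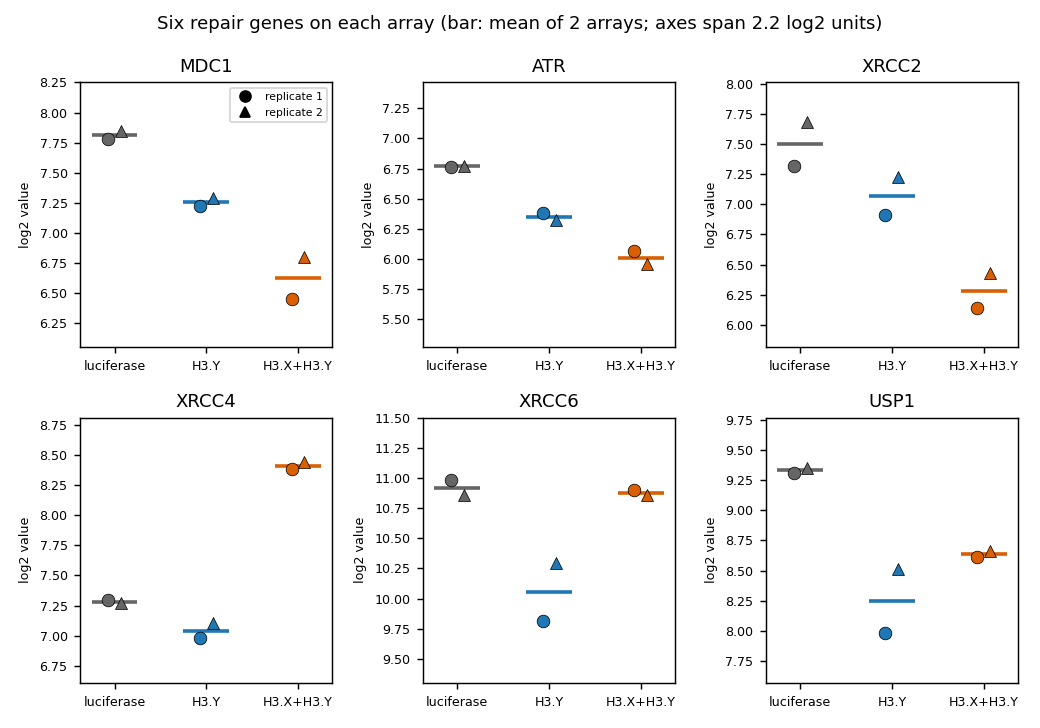
Log2 value (vertical axis, the same span of log2 units in every panel) of 6 repair genes on each array, by siRNA group, with a bar at the mean of 2 arrays. MDC1, ATR and XRCC2 step down from luciferase to H3.Y siRNA to the combined knockdown, XRCC4 is high in the combined knockdown (8.38 and 8.44), XRCC6 is low after H3.Y siRNA (9.81 and 10.29), and USP1 is low in both knockdowns.

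Genes of dividing cells were set beside the repair genes, with no test between them. Of 16 S phase genes such as MCM2, PCNA and RRM1, all 16 had lower means in both comparisons, with medians of log2 -0.45 after H3.Y siRNA and -0.59 in the combined knockdown. None was called after H3.Y siRNA, where 12 had an unadjusted p under 0.05 in limma, and RRM1 and SLBP were called lower in the combined knockdown. Of all probe sets, 7.66% were lower with such a p after H3.Y siRNA, and 0.985% were called lower in the combined knockdown. Of 15 genes of G2 and M phase, 14 were lower in each, with medians of -0.46 and -0.72, and CCNA2, CDC20 and PLK1 were called lower in the combined knockdown. RRM1, the large subunit of ribonucleotide reductase, fell by 1.07 ± 0.13 log2 units (adjusted p = 0.021), and the cyclin CCNA2 fell by 1.49 ± 0.14 (adjusted p = 0.015). Their part in the repair gene differences was not tested, and in RNA of whole cultures fewer cells in S phase and less RNA per cell cannot be told apart.

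Further genes of the same pathways, taken from textbook lists, were described in the same way, with no test of how they differ from the genes above. Of 31 other recombination genes, 24 were lower after H3.Y siRNA (median log2 -0.19) and 23 in the combined knockdown (-0.24). The 14 other Fanconi genes had medians of -0.05 and 0.01, the 10 other end-joining genes 0.05 and 0.06, and the 4 other mismatch repair genes -0.01 and -0.19. Of 19 other signalling genes, 11 and 12 were lower, with medians of -0.05 and -0.19. RNF168, a ubiquitin ligase that acts downstream of MDC1, was the 1 gene of these lists that limma called against luciferase. It read 8.42 and 8.72 in luciferase cells, 7.88 and 8.23 after H3.Y siRNA and 7.57 and 7.49 in the combined knockdown. There it fell by 1.04 ± 0.18 log2 units (limma adjusted p = 0.048). Its values in the alternative fits are not given here. Of all probe sets, 1.84% were called in the combined knockdown and 0.279% after H3.Y siRNA. A single call in lists of this size is therefore not read as a result about them.

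**Figure D4:**
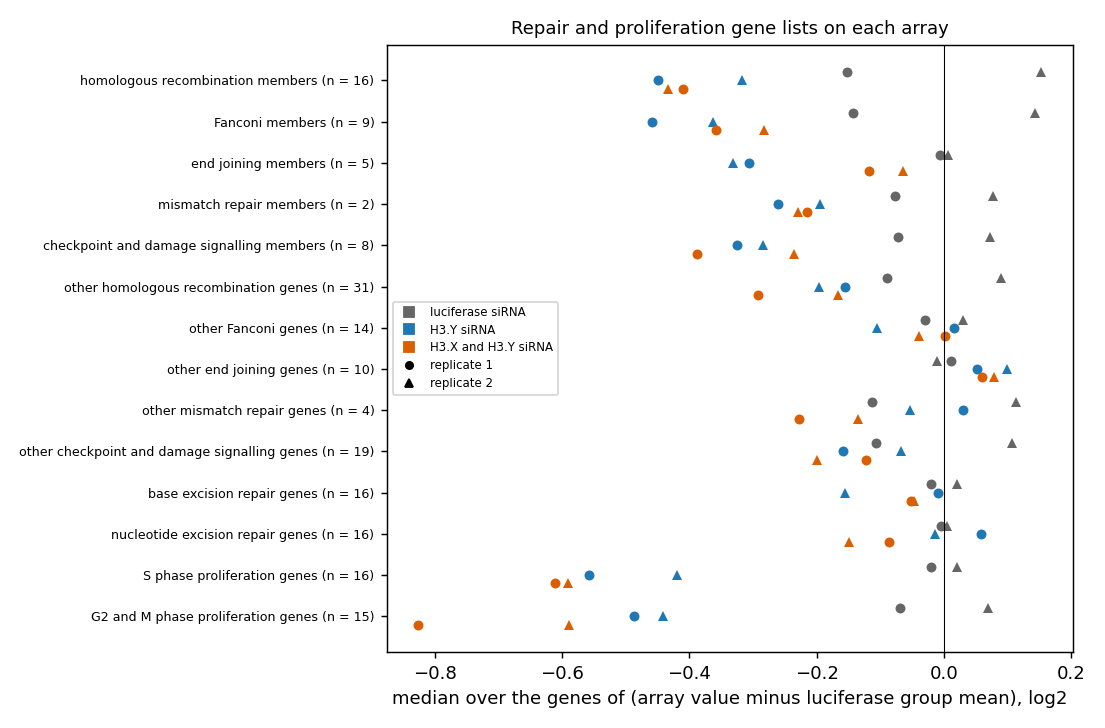
Median over the genes of each list (number in brackets) of the array value minus the luciferase mean of the gene (horizontal axis, log2 units), for each of the 6 arrays. The 4 knockdown arrays lie below both luciferase arrays in the 5 lists of repair genes described above and in both proliferation lists. They also do so in the other homologous recombination genes. The S phase list lies between -0.61 and -0.42 on these arrays, while the other Fanconi and other end-joining genes lie near 0.

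These counts depend on few arrays. With any 1 luciferase or combined knockdown array left out, 0 of the 40 genes were called in the combined knockdown against luciferase, and without either H3.Y array MDC1 and XRCC4 were called in a fit with fewer residual degrees of freedom. XRCC4 against H3.Y siRNA was called without either luciferase or either H3.Y array, and not without either combined knockdown array. With only the 19460 probe sets of 1 symbol in the fit, 4 genes were called lower after H3.Y siRNA (USP1, XRCC6, BRIP1 and MSH6). In the combined knockdown 7 were called. That fit called 829 of its 19460 probe sets after H3.Y siRNA, against 93 of 33297 in the main fit. Calls thus rose over the whole array in that comparison. The matching count for the combined knockdown is not given here, so its 7 cannot be read as a result about these genes.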

How the data were processed

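Each deposited value is the log2 expression of 1 probe set on 1 array. The authors used oligo, a Bioconductor package, as the submitters' processing notes record. Neither its version and settings nor a genome build is given in the sources used here, and the base of the log was judged from the range of values (0.687 to 14.0). No further normalization was applied, and an equalised scale hides any change shared by all transcripts. Probe sets were named from the platform annotation (19460 with exactly 1 symbol, 19429 of them updated by Entrez ID through RefSeq GRCh38.p14, 1754 with several, 12083 unnamed here).

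All 6 arrays were fitted with limma 3.58.1 in R 4.3.3 (lmFit, eBayes, 1 mean per group, 3 residual and 3.43 prior degrees of freedom), two-sided, with Benjamini-Hochberg adjustment over 33297 probe sets in each comparison. A gene was called at an adjusted p under 0.05, and its probe set with the highest mean was used. The number of arrays limits the precision. The procedure was run on simulated data with independent noise and planted changes larger than most of those in the repair genes. That simulation held no variation shared by same-numbered arrays, so it cannot show how the procedure performs where such variation exists. The members and lists were chosen with earlier results of these data known. Genes given with values on every array are those called, the 3 with the smallest p per pathway and comparison with luciferase, and the largest rises, plus ATM, chosen after its values were seen. Alternatives were quantile normalization, median centring, a replicate block, a fit of the 4 arrays of a comparison alone, a filter at a mean of 5, a trended robust prior, only probe sets with 1 symbol, and each array left out.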

Additional observations from a re-analysis of the deposited data

Results flagged for a closer look

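XRCC4 was flagged because its level differed between the knockdowns by a test of the difference itself, where 4.67% of all probe sets did. It was log2 1.37 ± 0.13 (SE, n = 2 per group) higher in the combined knockdown than after H3.Y siRNA, with an adjusted p of 0.0075 in limma, and higher on 2 of 2 arrays. The H3.Y arrays lay below both luciferase arrays and the combined knockdown arrays above both. What sets XRCC4 apart from the other end-joining genes was not tested.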

How the results depend on the processing

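The number of repair genes called after H3.Y siRNA was 0 as reported. It was 1 (USP1) with a filter on low values and 4 in a fit of only probe sets with 1 gene symbol. In the combined knockdown it was 4 as reported. There it was 7 in the fit of only probe sets with 1 gene symbol and 2 with only the 4 arrays compared. Between the knockdowns it was 1 as reported. That number became 4 with the filter on low values and 4 in the fit of only probe sets with 1 gene symbol. With a trended robust prior it was 2, and with the replicate block 2. Calls over all probe sets moved too. After H3.Y siRNA they numbered 93 as reported, 541 with the filter on low values and 829 with only probe sets of 1 gene symbol. For the combined knockdown against either group, such counts are not given here. The moves in the number of repair genes there cannot be read as particular to them. The cause was not tested. Under the replicate block the count of repair genes stayed at 0 after H3.Y siRNA and at 4 in the combined knockdown, where BRCA1 replaced ATR. Deviations of same-numbered arrays correlated with r of 0.12 to 0.28, but the labels do not say what a number shares. The median log2 difference of the repair genes ran with 1 array left out from -0.48 to -0.26 after H3.Y siRNA, from -0.39 to -0.21 in the combined knockdown, where quantile normalization gave -0.26, and from -0.02 to 0.08 between the knockdowns. The sign turned for small uncalled values. In the combined knockdown quantile normalization gave PMS2 0.026 and XRCC6 0.020. With 1 array left out, LIG4 there ran from -0.17 to 0.064, PMS2 from -0.12 to 0.096 and XRCC6 from -0.11 to 0.023. Between the knockdowns CHEK2 ran from -0.34 to 0.53 and PALB2 from -0.34 to 0.00094. Over all named genes and the 3 comparisons, 8 values turned sign with 1 array left out. Few of these values were called in the main fit. Most of those calls were lost with 1 array left out, where its group held 1 array. A call lost in such a fit cannot show that the difference depended on that array.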

Other observations

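Base excision repair removes single damaged bases, and nucleotide excision repair removes bulky lesions. Of 16 base excision repair genes, 9 were lower after H3.Y siRNA (median log2 -0.06) and 11 in the combined knockdown (-0.07), and 0 were called in limma, with 3 at an unadjusted p under 0.05 in each. Of 16 nucleotide excision repair genes, 4 were lower after H3.Y siRNA (median 0.03) and 11 in the combined knockdown (-0.16), and 0 were called against luciferase, with 4 and 2 at an unadjusted p under 0.05. Of all probe sets, 13.9% and 15.3% had such a p in these comparisons.

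ERCC1, the partner of the nuclease that cuts beside bulky lesions and crosslinks, read 7.70 and 7.54 in luciferase cells, 7.94 and 7.99 after H3.Y siRNA and 6.91 and 6.75 in the combined knockdown. Its difference between the knockdowns was log2 -1.13 ± 0.14 (SE, n = 2 per group, limma adjusted p = 0.014). MLH3, a mismatch repair and meiotic crossover gene, read 5.90 and 6.29, then 6.80 and 6.59, then 5.48 and 5.65, and also differed between the knockdowns by -1.13 ± 0.18 (adjusted p = 0.027). In both, the H3.Y arrays lay above luciferase and the combined knockdown arrays below it, the reverse of XRCC4. Neither passed against luciferase in either knockdown. Between the knockdowns 4.67% of all probe sets were called, so these calls are not read as a result about the lists. Of 9 direct p53 targets with a link to repair or arrest, which include FANCC of the genes above, 6 were higher after H3.Y siRNA (median 0.11) and 7 in the combined knockdown (0.14), where CDKN1A, the CDK inhibitor, rose by 1.03 ± 0.16 (adjusted p = 0.040).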
